A study of Mus musculus with 18 samples.

Results

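Promoter peaks shared by both BFU-E populations were stretches of open chromatin close to a gene start that appeared in the deposited peak list of stress spleen BFU-E and again, by overlap, in that of bone marrow (BM) BFU-E. BFU-E (burst-forming units, erythroid) are early progenitors committed to the red cell lineage, named for the large bursts of red cell colonies they form in culture. Members were chosen from the peak lists themselves: an interval of the stress spleen list belonged when its centre lay within 1000 bp of a transcription start site (TSS), by the authors' annotation, and when it shared at least 1 bp with a BM interval. The rule found 11738 peaks, 19.0% of the 61661 intervals of the stress spleen list, and the BM list held 35142 intervals. What the rule used, the presence of a peak in each list and its distance from a start, is described here and not tested.

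All cells came from B6SJL mice. Stress progenitors were sorted from the spleen on day 8 after the mice had been lethally irradiated and given unfractionated BM cells, and steady-state BFU-E came from the BM of mice in steady state. Cells carrying lineage antigens were depleted, and the remaining cells were sorted by antibodies against CD71, CD9, CD24a, CD150, CD133, c-Kit and Sca1. Both BFU-E populations were Sca1-negative. RNA was also sequenced from Sca1-positive multipotent progenitors (MPP) and CD9-negative CFU-E (colony-forming units, erythroid, the next step toward red cells) of the stress spleen, with 3 RNA libraries in each of the 4 populations. ATAC-seq, which cuts accessible DNA with a transposase, was done on 3 libraries of each BFU-E population, but the deposited lists hold 1 merged list per population, so no peak value has a replicate error. Tissue, irradiation with transplantation, and the fluorophore of the sort change together between the BFU-E populations and cannot be told apart. No label says whether the libraries came from separate animals, so the p-values measure the spread between these libraries only.

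A promoter is the stretch around the start of a gene where RNA polymerase II and the general factors assemble, and nucleosomes are displaced there when it is in use or ready for use. Most promoters of widely used genes lie in CpG islands, stretches rich in G, C and the pair CG, and carry sites for factors found in nearly every cell, such as the ETS family, SP1 and its relatives, NRF1, YY1 and NF-Y. Genes of the red cell programme are often driven by GATA1 and KLF1 from promoters and from distal enhancers.

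The sequences below show what lies just upstream of the start of genes with a shared promoter peak, followed by genes of the red cell programme whose starts lay in no peak. Each is 100 bases of the reference genome (GRCm38, the build of the peak lists; start positions from the RefSeq table for GRCm38.p6) on the strand of the gene, 5′ to 3′, and none touches an annotated exon. Capitals mark a match to one of the words searched below. The genes were picked after their matches were seen. Stretches were moved away from the start until no exon was touched. They end at position -3 in Rps21, -18 in Farsa, -43 in Alas2 and -55 in Klf1, and at -1 in the others. All 7 stretches of the first set lay whole inside the peaks of both lists. Psmd11 (chr11:80428515-80428614, plus strand) encodes a lid subunit of the proteasome, with SP and ETS words. Rps21 (chr2:180257277-180257376, plus strand) encodes a ribosomal protein, with a pair of ETS words. Farsa (chr8:84856869-84856968, plus strand) encodes a subunit of the phenylalanine tRNA synthetase, with the YY1 word. Alad (chr4:62520064-62520163, minus strand) encodes an early enzyme of haem synthesis, with SP words and the CCAAT box. Myb (chr10:21160985-21161084, minus strand) encodes a transcription factor of progenitors, and its stretch held 15 CpG and no match. Epor (chr9:21963577-21963676, minus strand) encodes the erythropoietin receptor, with a GATA word and an SP word and 1 CpG. Pf4 (chr5:90772335-90772434, plus strand) encodes platelet factor 4, and its stretch was 37% G and C with 0 CpG.
Psmd11: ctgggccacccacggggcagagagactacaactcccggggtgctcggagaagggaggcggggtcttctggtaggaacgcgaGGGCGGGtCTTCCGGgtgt
Rps21: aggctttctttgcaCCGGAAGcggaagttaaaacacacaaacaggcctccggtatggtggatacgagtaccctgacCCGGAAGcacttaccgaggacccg
Farsa: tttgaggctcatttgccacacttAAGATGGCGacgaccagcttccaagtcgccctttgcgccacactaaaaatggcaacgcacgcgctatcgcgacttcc
Alad: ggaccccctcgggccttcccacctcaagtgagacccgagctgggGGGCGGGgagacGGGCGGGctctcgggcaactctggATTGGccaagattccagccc
Myb: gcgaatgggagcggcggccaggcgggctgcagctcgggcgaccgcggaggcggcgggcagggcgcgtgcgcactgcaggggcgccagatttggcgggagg
Epor: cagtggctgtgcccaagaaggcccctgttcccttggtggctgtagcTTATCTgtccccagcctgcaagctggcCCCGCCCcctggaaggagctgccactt
Pf4: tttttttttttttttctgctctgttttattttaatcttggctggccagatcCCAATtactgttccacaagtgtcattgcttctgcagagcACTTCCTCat
The stretches of Klf1 (chr8:84901828-84901927, plus strand), which encodes the erythroid factor KLF1, and of Alas2 (chrX:150547275-150547374, plus strand), which encodes the erythroid form of the first haem synthesis enzyme, touched no peak of either list.
Klf1: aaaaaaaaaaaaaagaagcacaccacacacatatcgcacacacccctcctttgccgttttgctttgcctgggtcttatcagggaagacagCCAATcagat
Alas2: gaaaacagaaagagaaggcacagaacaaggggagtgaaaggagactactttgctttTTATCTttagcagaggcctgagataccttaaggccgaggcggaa
The set with shared peaks ran from 79% G and C in Myb to 37% in Pf4, and Klf1 and Alas2 had 44% and 46%. The stretches of Klf1 and Alas2 lie further from the start, so these shares are not like for like. A match is a run of letters and not a bound site.

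Nearly all BM promoter peaks lay under a stress spleen peak. Of the 11692 promoter peaks of the BM list, 98.9% overlapped a stress spleen interval, and 129 did not. In the other direction, 83.1% of the 14131 promoter peaks of the stress spleen list overlapped a BM interval, against 46.7% of its distal intervals. The stress spleen list is the longer of the lists, so these shares also carry the difference in length. The overlap was seldom marginal. BM intervals covered a median of 98.4% of the stress spleen interval, 98.9% of the members were covered over at least 50% of their width, and the smallest overlap was 35 bp. Only 2 members overlapped by under 50 bp, and 9 stress spleen promoter peaks without a BM overlap lay within 50 bp of a BM interval. The BM interval was itself a promoter peak for 99.6% of the members.

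Shared promoter peaks were wide. Their median width was 1050 bp in the stress spleen list, with quartiles of 834 and 1278 bp, and 1127 bp in the BM list. Promoter peaks of the stress spleen list without a BM overlap had a median of 615 bp, and distal peaks in both lists had a median of 652 bp. The authors' peak score, which runs from 415 to 1000, stood at its highest value for 10441 members in the stress spleen list and for 6505 in the BM list. It stood there for 402 of the 2393 promoter peaks without a BM overlap. The score tops out, so differences among the 6382 members at 1000 in both lists are not seen.

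Widths in the lists followed each other across members, with a Spearman's rho of 0.70 over 11738 peaks that share the same genomic places, given as a description. Slightly more members were wider in BM, 63.4%, and the median ratio of stress spleen to BM width was 0.96. Among the 10952 members in which 1 stress spleen interval met 1 BM interval and no other, the ratio was at least 1.5 in 342 and under 1/1.5 in 355. The largest ratio of stress spleen to BM width was that of Mb21d2, 1866 bp against 282 bp in BM, followed by Atp9a with 1599 against 290 bp and Sowahd with 1532 against 289 bp. The BM intervals of these genes scored 467, 480 and 460, near the lowest score of 415, and Atp9a scored 519 in the stress spleen list. Such ratios may rest on weakly called BM intervals. Aldh1a1, which encodes a retinaldehyde dehydrogenase, had 1687 bp against 394 bp. At the other end, a wide BM interval was split into several peaks in the stress spleen list, as at Tmem164 (197 bp under a BM interval of 2145 bp) and Cdk6 (388 bp under 3609 bp), a kinase of the early cell cycle.

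The widest members were near genes of unlike kinds. The widest was 3475 bp at the non-coding gene 4930526I15Rik. Peaks of 2985 and 2911 bp lay at starts of histone genes on chromosome 13, both annotated to Hist1h2ap. Tagln2, which encodes an actin-binding protein, had 2628 bp, Sp3os 2600 bp, the sulfotransferase gene Chst2 2594 bp, and Dnmt3a, which encodes a DNA methyltransferase, 2589 bp. Each of these was about as wide in BM, with a ratio from 0.99 at Chst2 to 1.09 at Hist1h2ap.

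Members sat on the start, with a lean to its downstream side. The median distance of the centre was 64 bp downstream of the TSS, and 64.0% of the centres lay downstream. Centres lay within 100 bp of the start in 39.3%, within 200 bp in 66.7% and within 500 bp in 92.1%. For promoter peaks without a BM overlap these shares were 29.7%, 48.2% and 70.5%. At the limit of the rule, 23 members with centres at 981 to 1000 bp had a median width of 557 bp, and 31 peaks in both lists just outside, at 1001 to 1020 bp, had 681 bp. By the authors' annotation, 61.5% of the members were called promoter-TSS, 16.5% intron, 10.5% 5′ UTR and 8.91% exon at their centre, and 92.8% were nearest to a protein-coding gene.

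**Figure D1:**
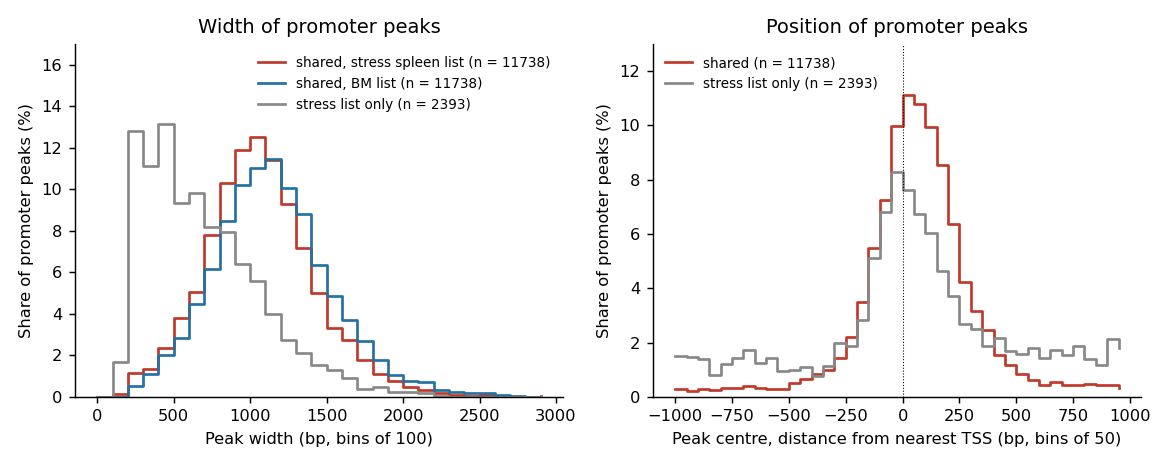
Left, widths of promoter peaks in bins of 100 bp, as a share of each set, for the 11738 shared peaks in the stress spleen list (red) and in the BM list (blue) and for the 2393 promoter peaks of the stress spleen list alone (grey). Right, distance of peak centres from the nearest TSS in bins of 50 bp; shared peaks gather within 200 bp of the start and reach their highest share just downstream of it.

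Gene starts on both strands inside a peak marked a part of the members. Of the 11738 members, 974 held starts of genes on both strands (8.30%; 95% Wilson interval 7.81 to 8.81%). Of the promoter peaks without a BM overlap, 18 of 2393 did (0.75%; 0.48 to 1.19%). These intervals, and those that follow, cover counting error only: they treat peaks as separate draws, and no test between the sets was made. The widths differed as well, so a wider peak had more room for another start: members with starts on both strands had a median width of 1172.5 bp, and those with starts on a single strand had 1065 bp.

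Shared promoter peaks were rich in G, C and CpG. Over whole peaks, the median share of G and C was 60.5%, and 74.0% of the members passed a common rule for CpG islands (over 50% G and C, and a ratio of observed to expected CpG over 0.6). The same rule was passed by 42.8% of the promoter peaks without a BM overlap and by 5.72% of the distal peaks in both lists. Among members, the CpG-rich ones were wider, with a median of 1103 bp against 872 bp for the others, and a larger share stood at the highest score: 91.2% against 82.7% in the stress spleen list, and 60.1% against 41.9% in the BM list.

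In all, 15 short words were searched on both strands in the 201 bases around each peak centre. The ETS family was searched as CCGGAAG and the SP family as CCCGCCC. The word of YY1 was AAGATGGCG, and the box of NFY was CCAAT. Of the blood cell factors, KLF1 was searched as CCACACCC, the GATA family as AGATAA, the RUNX family as TGTGGTT and PU.1 as GAGGAAGT. The E-box of MYC and USF was CACGTG, the CRE of CREB and ATF was TGACGTCA, the AP-1 site was TGANTCA and the TATA box was TATAAA. Longer words of NRF1, ZNF143 and CTCF were searched as well. Words may share bases, as ETS and PU.1 do in GGAAG. The SP word was present in 33.3% of the members (32.5 to 34.2%), in 21.7% of the promoter peaks without a BM overlap (20.1 to 23.4%), in 6.17% of the distal peaks in both lists and in 22.1% of all RefSeq promoters over the same length. The ETS word was in 10.3% of the members (9.76 to 10.9%), 4.26% (3.52 to 5.15%), 2.71% and 6.33%. The YY1 word was in 2.06% (1.82 to 2.33%), 0.29% (0.14 to 0.60%), 0.24% and 0.50%. GATA ran the other way, with 2.598% of the members (2.33 to 2.90%), 5.31% (4.48 to 6.28%) and 7.81% of all promoters, and with 13.2% of the shared distal peaks. The CCAAT box was about as frequent in members (20.2%) as in shared distal peaks (20.03%), and was in 29.4% of all RefSeq promoters. The windows of all RefSeq promoters are the 201 bases that end at the start, while those of peaks lie around the centre. Shares of peaks and of all promoters are therefore not like for like here, and windows placed alike are given below. Many members held few of these words: 5216 of them (44.4%) held none of the 8 counted together (ETS, SP, NRF1, NFY, YY1, CRE, E-box and ZNF143), against 58.1% of the promoter peaks without a BM overlap.

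Composition and overlap went together, so the words were also counted among CpG-rich peaks alone, 8686 members and 1024 promoter peaks without a BM overlap. There, the SP word was in 37.9% (36.9 to 38.9%) and 34.7% (31.8 to 37.6%), and these intervals overlap. The ETS word was in 11.4% (10.7 to 12.1%) and 5.66% (4.41 to 7.25%), the YY1 word in 2.39% (2.09 to 2.74%) and 0.49% (0.21 to 1.14%), and the CCAAT box in 19.1% (18.2 to 19.9%) and 12.9% (10.98 to 15.1%). GATA was in 1.28% (1.06 to 1.54%) and 1.95% (1.27 to 3.00%), and these intervals overlap too. Overlap of intervals is not a test of the difference, and none was made. Among peaks of other composition GATA was in 6.36% of the members (5.54 to 7.28%) and in 7.82% of the rest (6.51 to 9.36%).

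The words were also read from the start site instead of the peak centre. Of 32817 RefSeq promoter windows of 300 bases, 250 before the start to 50 after it, 11659 had their start inside a member, 1299 in a promoter peak of the stress spleen list alone and 18512 in no peak of either list. Of these windows, 75.5%, 48.1% and 5.88% passed the rule for CpG islands, against 33.3% of all 32817. Words were not counted by composition here, so its part in the shares that follow was not tested. The SP word was in 51.2%, 43.1% and 8.14% of these windows, and in 25.6% of all 32817. The ETS word was in 19.4%, 7.70% and 2.44%, and in 8.85% of all. The NRF1 word was in 2.35%, 0.69% and 0.17%, and the YY1 word in 3.34%, 0.69% and 0.28%. The CCAAT box was in 38.3%, 29.6% and 37.7%, and in 37.4% of all. The TATA box went the other way, with 5.75%, 6.93% and 19.4%, as did GATA, with 5.27%, 8.08% and 15.1%. In windows under members, SP matches were most frequent at 50 to 30 bases before the start (11.3% of the windows), CCAAT boxes at 70 to 50 bases before it (7.85%), ETS words across the start itself (4.14% within 10 bases of it) and YY1 words 10 to 30 bases after it (1.09%). These steps hold only a part of the matches. The stretch of Alad printed above has its CCAAT box nearer the start than that, at 20 bases before it, and Psmd11 has its ETS word at 11 bases before the start.

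**Figure D2:**
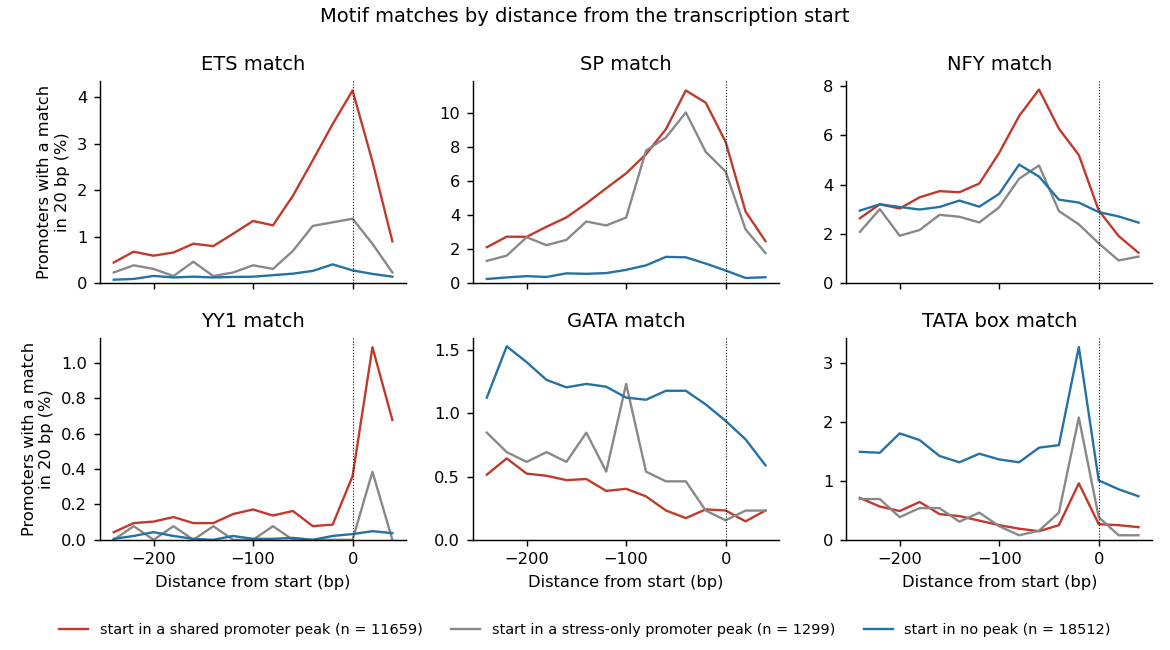
Share of 300-base RefSeq promoter windows with a match in each 20 bp step, by distance from the start (0, dotted), for windows with their start in a shared promoter peak (red, n = 11659), in a stress-only promoter peak (grey, n = 1299) or in no peak of either list (blue, n = 18512). ETS and SP matches rise near the start under shared peaks, to 4.14% and 11.3% in a step. GATA and TATA matches are more frequent where no peak was called. The sets also differ in G, C and CpG, and the part of this was not tested.

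Of the 24072 genes of the RNA tables, 10770 were named at a shared promoter peak (44.7%) and 1658 at promoter peaks of the stress spleen list alone. Another 430 were named only in the BM list, and 11200 at no promoter peak. A gene name comes from the nearest start, so a gene that shares its promoter with a neighbour can go unnamed in either list. A start within 1000 bp of the centre of a member was found for 1190 of the 11200, 324 of the 430 and 26 of the 1658. The 430 are thus a class by name, and only 129 BM promoter peaks had no stress spleen overlap. Gene lists were read against the 44.7% of all genes. They were chosen with earlier results of these data known, and the counts carry no test.

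The list of iron uptake and storage also holds Slc40a1, which encodes an iron exporter. All 13 of its genes had a shared promoter peak, among them Tfrc, the transferrin receptor, and Fth1, the ferritin heavy chain. Of 15 genes of haem synthesis, 14 did, and the exception was Alas2. Of 16 immediate early genes, which respond quickly to signals, 15 did, and the exception was Jund. Shared peaks were found at 69 of 79 ribosomal protein genes, 31 of 36 genes of complex I of the respiratory chain, 32 of 39 DNA replication genes, 16 of 20 tRNA synthetases and 24 of 31 proteasome subunits. The shares of these 5 lists, from 77.4% for the proteasome to 87.3% for ribosomal proteins, lie on either side of the 82.9% found among all genes at 1 RPKM or more in all 6 BFU-E libraries. Of their genes with no promoter peak in either list, all but Psmc1 had a start within 1000 bp of the centre of a member.

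Coverage of the lineage lists ran over a wide range. Of 27 erythroid transcription regulators, 22 had a shared promoter peak (81.5%), including Zfpm1 (FOG1, a partner of GATA1), Myb and Lmo2. That share lies near the 82.9% of all genes at 1 RPKM or more in all 6 BFU-E libraries. Gata1 and E2f2 had a promoter peak in the stress spleen list alone, and Gata2, Klf1 and Sox6 had none. Of 23 cytokine and growth factor receptors, 16 were covered, including Epor and Kit. Of 20 genes of the red cell membrane, 11 were, Ank1 (ankyrin) among them and Slc4a1 (band 3) not. Of 12 globins and carbonic anhydrases, 2 were (16.7%), and Car2 was the one tested for RNA. Stem cell regulators had 12 of 19 and megakaryocyte markers 9 of 17 (52.9%). Of the 17 megakaryocyte markers, 16 had a mean of 1 RPKM or more in stress spleen BFU-E, so their coverage was under that 82.9%. Among markers of other cells, 6 of 24 myeloid and macrophage markers, 4 of 11 mast cell and basophil markers, 2 of 20 lymphoid markers and 3 of 22 genes of other tissues were covered, each list under the 44.7% of all genes.

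**Figure D3:**
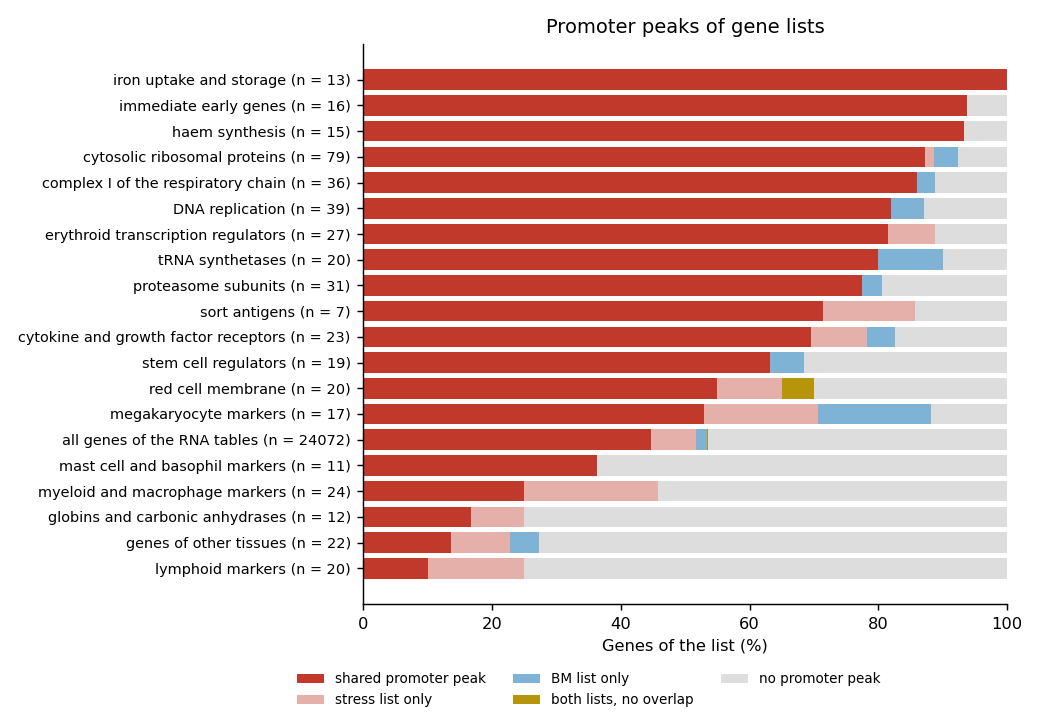
Share of the genes of each list, by gene name, with a shared promoter peak (red), named at a promoter peak only in the stress spleen list (pink) or only in the BM list (blue), with peaks in both lists that do not overlap (ochre) or with no promoter peak (grey), with all 24072 genes as a bar of their own. Coverage runs from 13 of 13 genes for iron uptake and storage to 2 of 20 for lymphoid markers.

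RNA was measured apart from the peaks, so levels could be set beside the rule. The median level of the 10770 genes was 5.38 ± 0.23 RPKM (SD, n = 3) in stress spleen BFU-E, 5.53 ± 0.38 in MPP and 5.04 ± 0.34 in CFU-E, where RPKM corrects the read count for the length of the gene and the depth of the library. In BM BFU-E the median was 4.83 ± 0.62 RPKM in the table of the 6 BFU-E libraries and 8.85 ± 0.75 in the table of all 12, whose BM columns do not match it, so no difference between BM and spleen levels is read from RPKM. Genes with a promoter peak in the stress spleen list alone, and genes with none, had a median of 0 RPKM in every library. Genes named only in the BM list had 3.17 ± 0.24 RPKM in stress spleen BFU-E, 3.15 ± 0.22 in MPP and 2.88 ± 0.08 in CFU-E. Of these 430 genes, 324 had a start within 1000 bp of the centre of a member, against 26 of the 1658. Their levels therefore cannot be read as those of promoters open in BM alone. At least 1 RPKM was reached by 75.5 ± 0.44% of the shared promoter genes in stress spleen BFU-E, by 76.8 ± 0.82% in MPP and by 72.6 ± 0.40% in CFU-E. For genes with a promoter peak in the stress spleen list alone the shares were 24.2 ± 0.67%, 26.9 ± 0.64% and 20.8 ± 0.55%. For those named only in the BM list they were 62.5 ± 0.48%, 64.0 ± 0.48% and 59.4 ± 0.88%.

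The share of genes with a shared promoter peak climbed with the RNA level and then levelled off. In stress spleen BFU-E, 12.4% of the genes under 0.1 RPKM had one, 40.7% of those from 0.1 to 0.5 RPKM, 65.1% from 1 to 2 RPKM, 79.9% from 5 to 10 RPKM and 83.9% at 50 RPKM or more (95% Wilson interval 80.7 to 86.6%). Above 10 RPKM the share stayed between 83.4% and 83.9%, within the intervals. In BM BFU-E the same climb ended at 81.8% (78.6 to 84.6%). Of the 7218 genes at 1 RPKM or more in all 6 BFU-E libraries, 82.9% had a shared promoter peak.

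**Figure D4:**
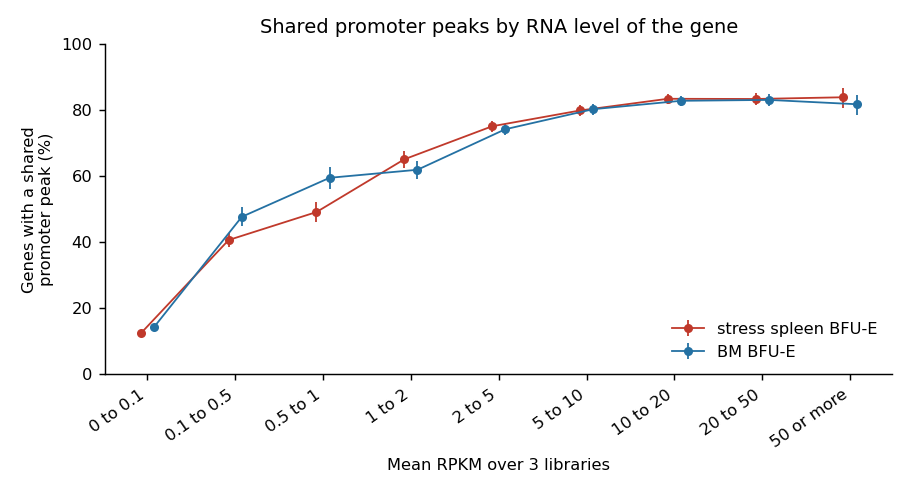
Share of genes with a shared promoter peak by mean RPKM over 3 libraries, for stress spleen BFU-E (red) and BM BFU-E (blue, from the 6-library table); bars are 95% Wilson intervals. The share climbs from 12.4% under 0.1 RPKM to 83.4% at 10 to 20 RPKM in stress spleen BFU-E and stays there.

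A shared peak was also found at genes with little or no RNA. Of the 10770 genes, 697 (6.47%) were listed at 0 RPKM in all 6 BFU-E libraries and 1822 (16.9%) stayed under 1 RPKM in all 6. The widest peaks at genes listed at 0 lay at genes that included Cnksr2, Slc24a4 and Sh3rf3, named after their values were seen. Mb21d2, with the largest ratio of stress spleen to BM width, was listed at 0 in all 6 BFU-E libraries too. Conversely, 830 genes with no promoter peak reached 1 RPKM in all 6 libraries, of which 554 had a start within 1000 bp of the centre of a member. Genes with no promoter peak and high levels included Apoe, Mpo (myeloperoxidase of neutrophil precursors) and Gata2. Gata2 stood at 120.2, 110 and 70.3 RPKM in BM BFU-E and at 86.7, 87.6 and 84.6 RPKM in stress spleen BFU-E.

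Within the members, wide and CpG-rich peaks went with higher RNA. Over 5 equal groups of peaks from narrowest to widest, the share of genes at 1 RPKM or more in stress spleen BFU-E was 61.5%, 75.1%, 79.6%, 81.7% and 82.8%. Across genes, Spearman's rho was 0.17 between stress spleen width and stress spleen RPKM, 0.21 between BM width and BM RPKM, and -0.0041 between the ratio of widths and the ratio of levels. These run over 10770 genes that share libraries, and are descriptions. The BM levels come from RPKM columns that do not match between the deposited RPKM tables. The rho of -0.0041 rests on a ratio to these levels, so neither a link nor the lack of one is read from it. CpG-rich members had medians of 6.36 to 6.95 RPKM in the stress spleen BFU-E libraries, and other members 1.92 to 2.12 RPKM. Members with starts on both strands had 7.47 to 7.94 RPKM, and the rest 4.84 to 5.31 RPKM.

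The RNA libraries of the BFU-E table held 6758871 to 9463498 counts in BM and 10555143 to 12926718 in stress spleen, and the libraries of the MPP, BFU-E and CFU-E table held from 5937778 to 13197159. BM library 3 stood apart: 15.3% of the genes of the BFU-E table had a count of 0 in it, against 5.81% and 1.53% in the other BM libraries and at most 0.74% in the spleen libraries. In the comparisons below, levels are CPM (counts scaled to library size, with TMM factors), scaled within each table. Differences are log2 fold changes with their standard error (SE), and adjusted p is from edgeR's quasi-likelihood test with Benjamini-Hochberg adjustment over all genes tested. All 3 comparisons use the stress spleen BFU-E libraries and are not independent of each other. In bulk RNA, fewer cells of a type and less RNA per cell cannot be told apart.

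Between the BFU-E populations, 8476 of the 10770 genes could be tested, and 5 passed, 1 higher and 4 lower in stress spleen. Over all 10702 genes tested the shares were 0.00934% higher and 0.103% lower. An unadjusted p under 0.05 was found for 810 of the 8476, and DESeq2, tried as an alternative, called 511 with a local dispersion trend and 255 with a parametric one, so the number of calls depends on the model of the spread. The median difference was 0.02 for members and 0.01 for all genes. Leaving out BM library 3 gave 16 calls among members, BM library 1 gave 1, BM library 2 or stress spleen library 1 gave 2, and stress spleen library 2 or 3 gave 0, and a fit with the replicate number as a block gave 0.

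Ctse, the gene of the aspartic protease cathepsin E, rose. It stood at 18.0, 10.9 and 14.1 CPM in BM BFU-E and at 99.9, 102.9 and 104.6 CPM in stress spleen BFU-E, a log2 difference of 2.84 ± 0.33 (SE; adjusted p = 0.0325). Its peak was 654 bp wide. Falls are described for 3 genes. Unc93b1, which encodes a carrier of Toll-like receptors, stood at 174.1, 146.0 and 170.6 CPM in BM and 29.3, 19.2 and 25.8 CPM in stress spleen and fell by 2.72 ± 0.26 (adjusted p = 0.0237). Nol4l fell by 1.87 ± 0.19 (adjusted p = 0.0237), and Neat1, a nuclear non-coding RNA that builds paraspeckles, fell by 1.84 ± 0.23 (adjusted p = 0.0373). For each of these 4 genes, the adjusted p went above 0.05 in 5 of the 6 fits with a library left out, while the size of the difference kept its sign.

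No gene with a shared promoter peak from the erythroid, haem, iron, megakaryocyte, stem cell or myeloid lists passed in this comparison. Irf8, a myeloid transcription factor, stood at 205.0, 409.6 and 247.7 CPM in BM and at 73.0, 22.7 and 24.7 CPM in stress spleen, which did not overlap, yet its adjusted p was 0.142 (log2 difference -2.84 ± 0.51). The whole list of 24 myeloid and macrophage markers summed to 314.9 to 812.4 RPKM in the BM libraries and 223.4 to 338.1 RPKM in the stress spleen BFU-E libraries, both in the 6-library table, whose BM columns the 12-library table does not match. A mean of 1 RPKM was reached by 20 of the 24 in BM and 13 in stress spleen. Mpo was the most abundant of them in both, Cebpe was at 0 in all 3 BM libraries, and C1qa, C1qb and Vcam1 were at 0 in all 3 stress spleen libraries. The part of myeloid RNA in the differences of Unc93b1, Nol4l, Neat1 and Ctse was not tested. Tfrc stood at 33.2, 59.2 and 31.3 CPM in BM and at 133.0, 113.6 and 107.0 CPM in stress spleen, with an adjusted p of 0.21.

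Against MPP of the stress spleen, 311 of the 8207 genes tested passed in stress spleen BFU-E, 157 higher and 154 lower. Leaving out BFU-E library 1, 2 or 3 left 163, 171 and 187 calls. The 157 and 154 are 1.91% and 1.88% of the members tested, against 2.03% and 2.11% of all 10166 genes. Genes with a promoter peak in the stress spleen list alone passed in 35 of 388 (9.02%), and the difference between these shares was not tested.

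Of 9 megakaryocyte genes with a shared promoter peak, 4 rose in BFU-E and 0 fell (median difference 1.02, against -0.0011 over all genes): Itga2b, Pf4, Plek and Rab27b. Of 6 megakaryocyte genes tested without one, 3 rose and 0 fell (median 1.26). Itga2b (integrin CD41) stood at 382.1, 408.8 and 327.3 CPM in MPP and 765.8, 782.8 and 720.6 CPM in BFU-E (1.02 ± 0.10, adjusted p = 1.13e-06). Pf4, whose promoter stretch is printed above, stood at 95.4, 105.0 and 92.3 CPM in MPP and 281.5, 305.3 and 228.4 CPM in BFU-E (1.48 ± 0.19, adjusted p = 2.88e-05). The list of 17 markers as a whole summed to 265.5 to 313.7 RPKM in MPP and 549.4 to 657.9 RPKM in BFU-E, and Vwf (0.31 ± 0.12, adjusted p = 0.191) did not pass.

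Of 11 stem cell regulators with a shared promoter peak, 4 fell in BFU-E, 1 rose (Fli1) and 6 did not pass (median -1.14); of 7 without one, 6 fell (median -2.66). Hlf, a factor of stem cells, fell from 97.8, 116.4 and 88.0 CPM in MPP to 16.8, 9.51 and 13.2 CPM in BFU-E (-2.93 ± 0.25, adjusted p = 2.17e-07). Mecom (EVI1) fell by 2.301 ± 0.22 (adjusted p = 8.22e-07), and Cd34 and Mllt3 fell as well. The rise of Fli1 (0.46 ± 0.11, adjusted p = 0.0229) was lost without MPP library 2 or without BFU-E library 1 or 2. By size, other falls were Col4a2, a basement membrane collagen (-3.51 ± 0.35, adjusted p = 1.46e-06), and Syne2 (-2.65 ± 0.31, adjusted p = 1.3e-05).

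Large rises over MPP were also found outside these lists. Scin, which encodes the actin-severing scinderin, stood at 7.29, 0.69 and 3.87 CPM in MPP and 57.3, 69.3 and 76.2 CPM in BFU-E (3.93 ± 0.35, adjusted p = 3.56e-07). Ltbp1, a binding protein of latent TGF-beta, rose by 3.20 ± 0.32 (adjusted p = 2.12e-06). Optn (optineurin, an autophagy receptor) stood at 20.1, 20.4 and 24.6 CPM in MPP and 102.3, 100.5 and 107.7 CPM in BFU-E (2.25 ± 0.14, adjusted p = 7.74e-09). Samd14 rose by 2.04 ± 0.16 (adjusted p = 5.19e-08), with a peak of 500 bp. Of the erythroid lists, Zfpm1 and Tal1 rose among 22 regulators, Ank1, Sptb and Aqp1 among 9 membrane genes, and Slc11a2 and Steap3 among 12 iron genes, with 0 falls in each. Cpox rose among 14 haem genes with 0 falls, a call lost without BFU-E library 1, 2 or 3. Car2, the 1 member tested of the globins and carbonic anhydrases, fell by 0.40, a call lost without BFU-E library 1.

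The sort bears on the antigens. The populations were separated on Sca1, whose gene Ly6a is not a member. Among the 5 antigen genes with a shared promoter peak, Cd24a fell by 1.63 ± 0.17 (adjusted p = 2.67e-06) and Kit by 0.51 ± 0.11 (adjusted p = 0.00896) in BFU-E, and Cd9 rose by 0.90 ± 0.20 (adjusted p = 0.00949). The calls of Kit and Cd9 were lost without BFU-E library 1 (Kit adjusted p = 0.0767, Cd9 adjusted p = 0.0741).

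From BFU-E to CFU-E, 1729 of the 8207 genes passed, 765 higher and 964 lower in CFU-E. That is 9.32% and 11.7% of the members tested, against 9.17% and 11.9% of all genes. Genes with a promoter peak in the stress spleen list alone passed in 135 of 388 (34.8%), and genes with none in 236 of 1296 (18.2%). These differences were not tested, and the shares of the members were close to the background in both directions.

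The megakaryocyte genes fell together. All 9 with a shared promoter peak fell, with a median of -3.63, against -0.0022 over all genes. The 6 tested without one fell as well (median -7.34), so the fall is not particular to the members. Pf4 went from 281.5, 305.3 and 228.4 CPM in BFU-E to 0.08, 0.08 and 0.92 CPM in CFU-E (-9.68 ± 0.32, adjusted p = 6.54e-15). Vwf (von Willebrand factor) went from 572.6, 616.5 and 497.1 CPM to 14.7, 15.5 and 21.4 CPM (-5.04 ± 0.15, adjusted p = 1.2e-15). Itga2b fell by 3.63 ± 0.11 (adjusted p = 1.2e-15), Plek by 5.22 ± 0.17 (adjusted p = 6.54e-15). The whole list of 17 summed to 549.4 to 657.9 RPKM in BFU-E and 26.4 to 29.7 RPKM in CFU-E, and Gp6 and Clec1b were at 0 in all 3 CFU-E libraries. CFU-E were sorted as CD9-negative, and CD9 is also carried by megakaryocytes and platelets. Cd9 itself, from 165.2, 140.1 and 141.9 CPM to 27.1, 16.1 and 13.1 CPM (-2.98 ± 0.21, adjusted p = 1.19e-09), follows the gate and is no result. The part of the gate in the falls of the megakaryocyte genes was not tested.

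Of 16 cytokine and growth factor receptors, 7 fell in CFU-E, 3 rose and 6 did not pass (median -0.16). Flt3, Csf2rb, Il6st, Tgfbr2, Igf1r and Insr were among the falls, and Epor, Kit and Ifngr1 rose. The call of Igf1r was lost in 5 of the fits with a library left out. Of 11 stem cell regulators, 6 fell and Mllt3 rose, and of 7 tested without a shared promoter peak, 3 fell and 0 rose. Fli1 went from 411.0, 414.2 and 369.7 CPM to 49.4, 51.4 and 52.1 CPM, a fall by 2.97 ± 0.12 (adjusted p = 2.45e-13). Of 5 myeloid genes, Irf8, Lyz2 and Spi1 fell and Axl rose, and of 7 tested without a shared promoter peak, 4 fell and 0 rose. Irf8 had 72.1, 22.3 and 24.2 CPM in BFU-E and 0.62, 0.25 and 1.73 CPM in CFU-E (-5.55 ± 0.68, adjusted p = 2.96e-06). Outside the lists, Trpc6, Sdpr and Dusp3 fell by 6.61 ± 0.61, 5.79 ± 0.29 and 5.53 ± 0.26 (adjusted p = 6.32e-08, 4.52e-12 and 1.32e-12).

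Of 12 genes tested from the iron uptake and storage list, 7 rose in CFU-E, 0 fell and 5 did not pass (median 0.76). The rises were those of Tfrc, Tfr2, Slc11a2, Steap3, Aco1, Fth1 and the exporter gene Slc40a1. Tfrc went from 131.3, 111.7 and 105.1 CPM in BFU-E to 336.1, 257.1 and 287.2 CPM in CFU-E (1.34 ± 0.15, adjusted p = 1.33e-06). CD71, its protein, was among the sort antigens. Of 14 haem genes, 5 rose, 0 fell and 9 did not pass (median 0.42): Alad, Urod, Cpox, Fech and Abcb10. Cpox, the oxidase of coproporphyrinogen, went from 85.6, 88.7 and 87.8 CPM to 268.5, 292.6 and 221.4 CPM (1.58 ± 0.14, adjusted p = 2.47e-08). Car2 rose by 0.95 ± 0.09 (adjusted p = 3.77e-08).

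Red cell membrane and regulator genes with a shared promoter peak moved both ways. Ank1 had 9.28, 10.8 and 10.9 CPM in BFU-E and 227.0, 275.4 and 224.0 CPM in CFU-E (4.55 ± 0.28, adjusted p = 9.06e-11), and Aqp1 and Add1 rose, while Sptb and Epb41 fell. Of 6 membrane genes tested without a shared promoter peak, 5 rose and 1 fell (median 3.38, against 0.37 for the 9 with one). Of the 22 regulators, 7 rose and 4 fell. Myb went from 719.4, 685.3 and 813.9 CPM to 1800, 1905 and 2107 CPM (1.39 ± 0.08, adjusted p = 4.11e-11). Zfpm1 fell by 0.53 ± 0.08 (adjusted p = 2.56e-05) and Lmo2 by 0.48 ± 0.08 (adjusted p = 0.000158). Klf1, without a promoter peak in either list, rose by 2.40 ± 0.23 (adjusted p = 7.85e-08).

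Of 32 DNA replication genes, 11 rose in CFU-E and 0 fell (median 0.26), and of 7 without a shared promoter peak, 0 rose and 0 fell. Of 16 tRNA synthetases, 9 rose and 0 fell (median 0.42), among them Eprs (0.40 ± 0.09, adjusted p = 0.0038). The 4 synthetases without a shared promoter peak rose as well (median 0.41). Of the 69 ribosomal protein genes, 44 could be tested, and 6 rose (median 0.19). Of 24 proteasome subunits, 3 rose, Psmd7 most clearly of those named (0.72 ± 0.10, adjusted p = 1.44e-05), and of 29 genes of complex I, 2 rose. The shares of these last 3 lists are read against the 9.17% of all genes called higher, and are not results about the lists. Calls of small size were less stable: those of Mcm3 (0.27) and Rpl8 (0.21) were each lost in 4 fits with a library left out.

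Large rises also came from outside the lists. Atp1b2, a beta subunit of the sodium pump, stood at 4.12, 2.31 and 7.00 CPM in BFU-E and 214.6, 240.2 and 186.3 CPM in CFU-E (5.56 ± 0.39, adjusted p = 1.00e-09). Mt2, a metallothionein, rose by 4.52 ± 0.46 (adjusted p = 2.28e-07), Myo1d by 3.46 ± 0.23 (adjusted p = 3.11e-10) and Xylt1 by 3.38 ± 0.21 (adjusted p = 1.95e-10). Ctse, higher in stress spleen than in BM BFU-E, rose again, from 98.7, 101.2 and 102.8 CPM to 234.8, 243.8 and 265.3 CPM (1.297 ± 0.14, adjusted p = 3.94e-07).

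**Figure D5:**
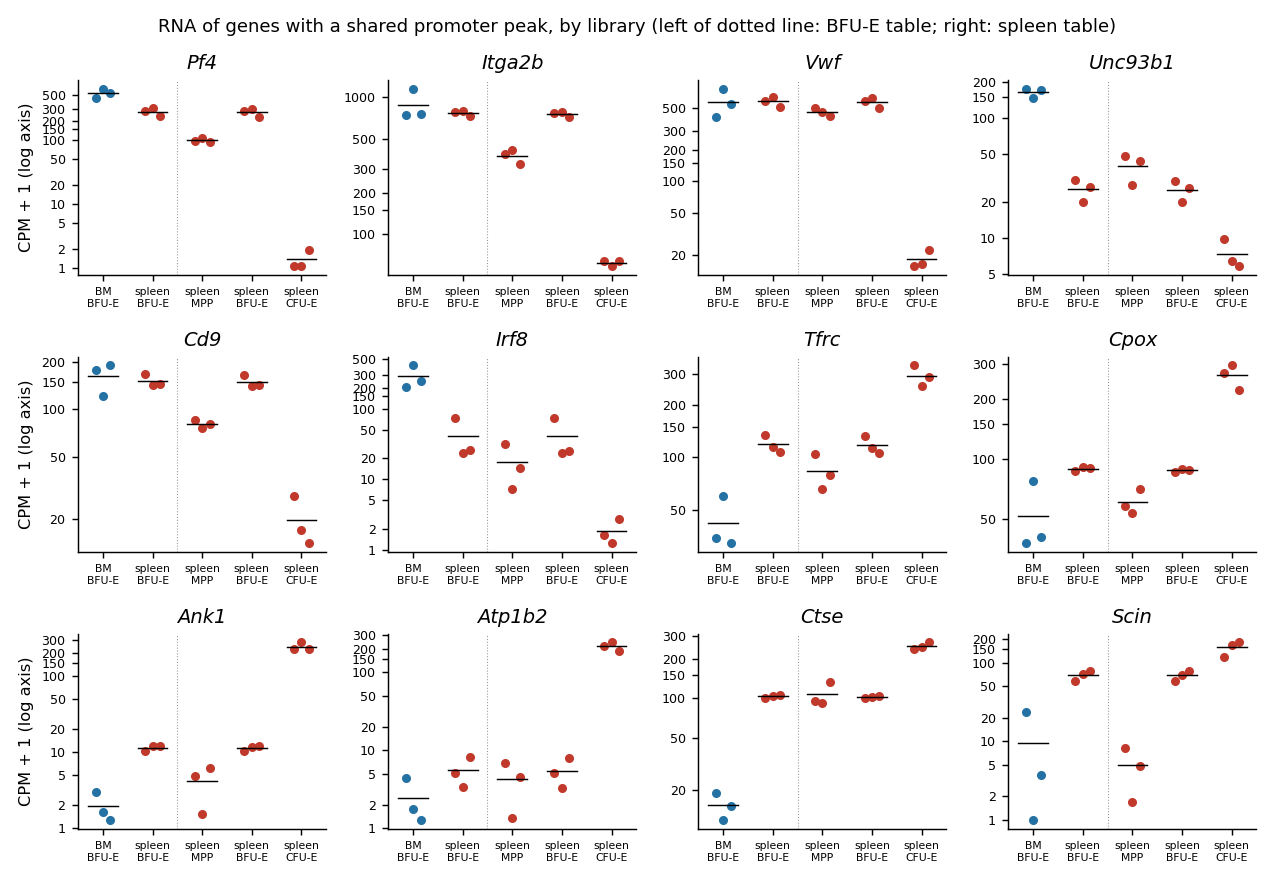
CPM plus 1 on a log axis for 12 genes with a shared promoter peak, a point per library and a line at the mean of 3; BM and stress spleen BFU-E from the BFU-E table lie left of the dotted line, and MPP, BFU-E and CFU-E of the spleen table right of it. Pf4, Vwf and Irf8 lie far lower in CFU-E than in BFU-E, and Ank1 and Atp1b2 far higher, with no overlap.

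Changes were spread unevenly over the kinds of shared promoter. From BFU-E to CFU-E, 19.8% of the 6678 CpG-rich members tested passed, 9.55% higher and 10.2% lower. Of the 1529 of other composition, 26.8% passed, 8.31% higher and 18.5% lower. Members with starts on both strands passed in 11.2% of 827. With an ETS word near the peak centre, 14.3% of 1001 passed, 9.19% higher and 5.09% lower. With a GATA word, 27.3% of 176 passed, 7.39% higher and 19.9% lower, and with the E-box, 22.9% of 440 passed, 13.9% higher and 9.09% lower. These shares stand beside the 9.17% and 11.9% of all genes as descriptions, since the kinds were not tested against each other. Abundance differs between the kinds, and so does composition. The GATA word was in 6.36% of the members of other composition and in 1.28% of the CpG-rich ones. The part of abundance and of composition in the shares was not tested.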

How the data were processed

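The tools named in the submitters' processing notes are HOMER 4.8, Bowtie2 2.3.4.2, DESeq2 and STAR 2.6.0b-1, with mm10 (GRCm38) as the build. Their roles, the caller of the peaks and its IDR threshold are not given in the sources used here. Per the file headers, HOMER counted reads over exons and kept 1 transcript per gene. The deposited count tables hold raw counts, the BFU-E one only for genes the authors kept at a mean of 50. The deposited RPKM values are reads scaled by the authors to gene length and library size. The deposited peak lists hold a score per peak; entries for 1 interval were merged (117426 to 61661 in stress spleen, 76147 to 35142 in BM). The counting strand is not stated, so antisense genes cannot be told apart. BM columns of the 2 RPKM tables correlate at only 0.77 to 0.86 on log2(RPKM + 1), against 1.00 for spleen, and the BFU-E table was used for BM genes; 1 of its BM columns carries no number.

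Counts were tested with edgeR 4.0.16 in R 4.3.3 (TMM, quasi-likelihood, Benjamini-Hochberg below 0.05): 10702 genes of the BFU-E table, and, in 1 fit of the 9 spleen libraries, the 10166 genes whose mean count reached 50. Tables were joined by gene symbol. On data simulated for the BFU-E comparison (10702 genes), the fit found 47% of 4-fold and 64% of 8-fold changes. For BFU-E against MPP (10166 genes) it found 92% and 100%. GC content, CpG and words were read from GRCm38, start windows from RefSeq, exons from GENCODE vM21. Python 3.11.15 and scipy 1.17.1 were used, and DESeq2 1.42.0 as an alternative. Its default parametric trend did not settle on the BFU-E pair and changed with the number of threads, so a local trend was set there, and the parametric form was fitted by direct minimisation. The main fits took no account of replicate numbers, which went with weak positive correlations among the spleen libraries only.

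Members, gene lists and words were chosen with earlier results of these data known. Named genes were up to 3 abundant members per list and those without a shared peak, the sort antigens, all calls between the BFU-E populations, the largest changes without overlap at a mean of 20 CPM or more, the 5 widest members and the 5 at either end of the width ratio, and the printed ones were picked from these. Some results are not reported here.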

Additional observations from a re-analysis of the deposited data

How the results depend on the processing

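The number and share of shared promoter peaks kept within 1.5 times under the overlap, score and distance alternatives, and no result reversed: of the summary values, 82 alternatives were close to the reported value, 22 moved, 9 fell and 4 rose in their number of calls. With a score of at least 600, the median width was 1066 bp in stress spleen and 1144 bp in BM, and the ETS share 10.9%. With centres within 500 bp the stress spleen width was 1062 bp, and 1 lymphoid gene was left. In pairs of 1 interval each the width ratio was 0.9715. Counted over whole peaks, words were in 30.5% (ETS), 69.7% (SP), 2.80% (NRF1), 6.13% (YY1), 20.6% (GATA) and 65.8% (NFY) of the members. In the 201 bases of CpG-rich members, they were in 11.4% (ETS), 37.9% (SP), 2.39% (YY1), 1.28% (GATA) and 19.1% (NFY). The 1:1 pairs, the CpG-rich subset and the start-site windows were chosen after seeing the data. Among genes at 1 RPKM or more, medians were 14.5 RPKM in BM BFU-E (12-library table), 7.68 in stress spleen BFU-E, 7.81 in MPP and 7.45 in CFU-E. Over all shared promoter genes, the BM median was 4.83 RPKM in the 6-library table. Between the BFU-E populations, DESeq2 called 511 members with a local dispersion trend and 255 with a parametric one, which was added after seeing the data because the default fit was not reproducible, and leaving out 1 library gave 0 to 16. Without a count filter, 475 members passed between BFU-E and MPP, and 163 to 333 with a library left out; between CFU-E and BFU-E leaving out a library gave 1313 to 1891. Same-numbered BM and spleen libraries had correlations of -0.0295 to -0.0361 in their deviations. Among spleen libraries, same-numbered ones had 0.0151 to 0.116 and differently numbered ones -0.0897 to 0.0296. The spleen numbers may thus carry a weak shared part, and what it stands for was not tested. With the replicate block, 0, 354 and 1802 members passed in the 3 comparisons. For named genes, 1024 of 1093 alternatives kept the call, or the lack of one, in the first comparison. In the second, 1374 of 1418 did, and in the third 1347 of 1418. Direction was checked only where the main fit or the alternative made a call. Of the alternatives in the first comparison, 30 lost a call and 39 gained one. The cause of these shifts was not tested. A run without a count filter could not be made for the BFU-E pair, whose table was filtered before deposit.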
